A study of Mus musculus with 2 samples.

Results

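Sod1, Sod2, Prdx1, Prdx2, Prdx3, Prdx4, Prdx5, Prdx6, Gpx1 and Gpx4 encode enzymes that remove superoxide, hydrogen peroxide and lipid peroxides. These 10 genes were picked by symbol from the deposited tables of long-read counts, out of 18497 annotated genes with at least 1 read, and all 10 had reads in both libraries. Their levels and isoforms are described in hippocampus of female mice of the B6CASTF1/J hybrid at an age of 2 months. The hybrid is a cross of C57BL/6J with CAST/EiJ, and no genotype change or treatment is given for it. The series has 1 group of 2 libraries, biological replicates 1 and 2 per the labels, each made from 2 µg of RNA. Both carry the same donor label, so an SD over the 2 libraries may not measure the spread between animals. The labels give no other group, so levels are set between genes and between libraries, not between conditions.

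Superoxide dismutases turn superoxide, mainly a by-product of mitochondrial respiration, into hydrogen peroxide. Peroxiredoxins and glutathione peroxidases then reduce hydrogen peroxide to water, the peroxiredoxins mostly with electrons from thioredoxin and the glutathione peroxidases with electrons from glutathione. NADPH renews both donors. Neurons hold little catalase and depend largely on these enzymes, and Gpx4, which acts on peroxides within membranes, protects neurons from ferroptosis, an iron-dependent form of cell death.

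In long-read RNA sequencing 1 read covers a cDNA from end to end or in part, so a long and a short cDNA each count as 1 read. CPM stands for the reads on a gene for every 1000000 reads outside the spike-in RNA. Replicate 1 held 826596 such reads and replicate 2 held 745492, so a single read equalled 1.21 CPM in replicate 1 and 1.34 CPM in replicate 2. A count of 0 allows up to 3.63 CPM in replicate 1 and 4.02 CPM in replicate 2. The tissue label, layer of hippocampus, was checked against defining markers. Markers of hippocampal excitatory neurons had a median of 1193 CPM, those of astrocytes 533 CPM, oligodendrocytes 383 CPM, microglia 55.8 CPM and endothelium 10.2 CPM. The endothelial markers were uneven, with mean levels of 200 CPM for Cldn5, 11.5 for Flt1, 8.93 for Pecam1 and 5.64 for Kdr. The choroid plexus markers Aqp1, Otx2 and Kcne2 had no reads, while the summed choroid plexus list, almost wholly Ttr, stood at 329 CPM in replicate 1 and 177 CPM in replicate 2. The 4 haemoglobin genes summed to 254 CPM in replicate 1 and 443 CPM in replicate 2. In bulk tissue, fewer cells of a type and less RNA per cell cannot be told apart.

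The 10 genes together took 1444 reads in replicate 1 and 1294 in replicate 2, or 1747 and 1736 CPM. Their median level was 179 CPM, beside 19.8 CPM for the median of 14787 annotated genes with a read in both libraries. Peroxiredoxins made up most of this, which over 6 genes summed to 1238 CPM in replicate 1 and 1198 CPM in replicate 2. The 2 glutathione peroxidases summed to 321 CPM in replicate 1 and 329 CPM in replicate 2. The 2 superoxide dismutases summed to 189 CPM in replicate 1 and 209 CPM in replicate 2.

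**Figure D1:**
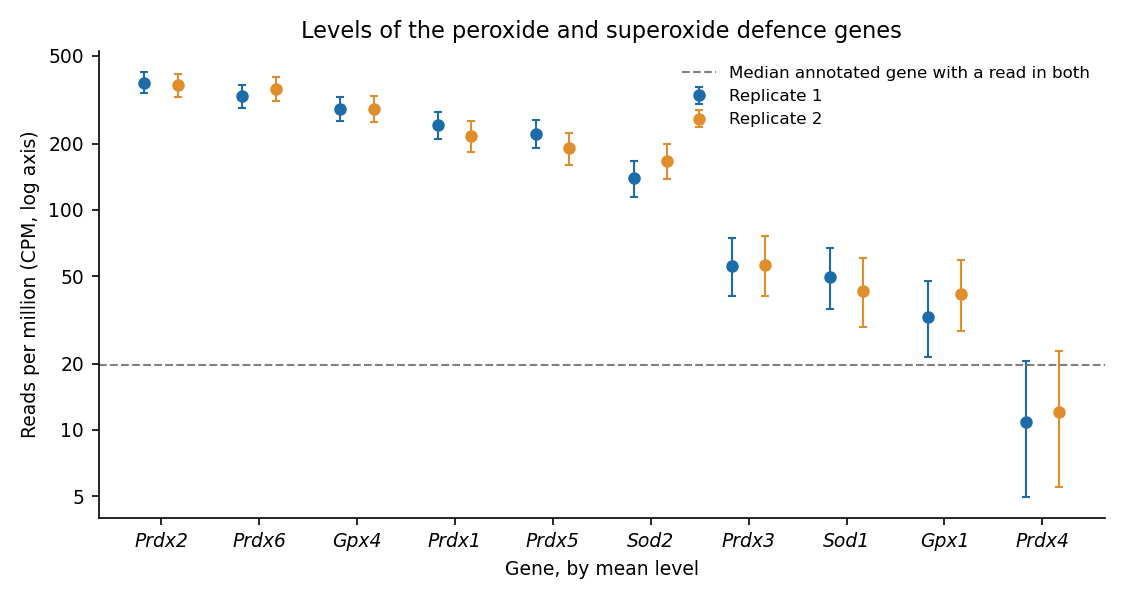
Level of each gene in CPM on a log axis, replicate 1 left and replicate 2 right, with exact 95% Clopper-Pearson intervals for counting error. The grey line is the median annotated gene with a read in both libraries, at 19.8 CPM, and among the 10 genes Prdx4 alone has both points under it.

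The superoxide dismutases differ in place and metal. Sod2, the manganese enzyme of the mitochondrial matrix (chromosome 17, 13006846 to 13040063 in mm10, plus strand), had 115 reads in replicate 1 and 124 in replicate 2, a level of 153 ± 19.2 CPM (mean ± SD, n = 2). Sod1, the copper-zinc enzyme of the cytosol (chromosome 16, 90220754 to 90226329, plus strand), had 41 reads in replicate 1 and 32 in replicate 2, or 46.3 ± 4.72 CPM. Sod2 therefore held 73.7% of the reads of this pair in replicate 1 (exact 95% interval 66.1 to 80.4%) and 79.5% in replicate 2 (72.3 to 85.5%), and the CPM of the 2 genes did not overlap. Their dominant models are the longest and the shortest of the 10, 5861 bases for Sod2-201 and 641 bases for Sod1-201. Per kilobase of model the order of the pair turned round, with 72.2 CPM per kilobase for Sod1 and 26.1 for Sod2. The part of transcript length in the level of Sod1 was not tested.

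Among the peroxiredoxins, Prdx2 and Prdx1 are the closely related enzymes of the cytosol, and Prdx2 is known in mouse brain mainly from neurons. Prdx2 (chromosome 8, 84969587 to 84974834, plus strand) had the highest level of the 10 genes, 379 CPM from 313 reads in replicate 1 and 369 CPM from 275 reads in replicate 2. Prdx6, which has a single catalytic cysteine, also acts as a phospholipase and is known mainly from astrocytes (chromosome 1, 161240112 to 161251219, minus strand), followed with 328 CPM from 271 reads in replicate 1 and 354 CPM from 264 reads in replicate 2. Prdx1 (chromosome 4, 116685544 to 116700822, plus strand) stood at 243 CPM in replicate 1 and 216 CPM in replicate 2. Prdx5, found in mitochondria, peroxisomes and the cytosol (chromosome 19, 6906697 to 6910106, minus strand), stood at 221 CPM in replicate 1 and 190 CPM in replicate 2. These 4 genes shared out most of the family's reads, with Prdx2 at 30.6% in replicate 1 and 30.8% in replicate 2, and Prdx6 at 26.5% and 29.6%.

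The remaining peroxiredoxins were far lower. Prdx3, the mitochondrial member that works with thioredoxin 2 (chromosome 19, 60864051 to 60874556, minus strand), had 46 reads in replicate 1 and 42 in replicate 2, or 55.6 and 56.3 CPM. Prdx4, the member of the endoplasmic reticulum (chromosome X, 155323918 to 155340754, minus strand), had 9 reads in each library, or 10.9 CPM in replicate 1 and 12.1 CPM in replicate 2. Prdx4 held 0.880% of the family's reads in replicate 1 and 1.01% in replicate 2, and was the lowest of the 10 genes at rank 9283 of 18497, where Prdx2 ranked 306.

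All 6 peroxiredoxins attack peroxide with a cysteine, and its codon can be read in the annotated coding sequence of each dominant isoform. A run of codons for phenylalanine, threonine, any pair of residues and cysteine was searched in frame on the transcript strand and occurred once in each of the 6. The same pattern occurs in 2.28% of 58797 annotated protein-coding transcripts. The windows below are from GENCODE M21 on mm10, 45 bases each, 5′ to 3′ on the transcript strand, with the 5 codons of the pattern in capitals, so that the last 3 capitals are the cysteine codon. Coordinates are those of the cysteine codon. The windows are shown because this site carries the chemistry of the family.
Prdx1-204, codon 52, chr4:116691823-116691825, plus strand: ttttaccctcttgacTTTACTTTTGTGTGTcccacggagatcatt
Prdx2-201, codon 51, chr8:84970483-84970485, plus strand: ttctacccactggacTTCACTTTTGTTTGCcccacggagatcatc
Prdx3-201, codon 109, chr19:60870127-60870129, minus strand: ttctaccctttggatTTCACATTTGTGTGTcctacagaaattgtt
Prdx4-201, codon 127, chrX:155332460-155332462, minus strand: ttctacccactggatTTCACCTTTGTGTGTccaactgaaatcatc
Prdx5-201, codon 96, chr19:6907988-6907990, minus strand: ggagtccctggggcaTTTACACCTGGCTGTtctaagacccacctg
Prdx6-202, codon 47, chr1:161247368-161247370, minus strand: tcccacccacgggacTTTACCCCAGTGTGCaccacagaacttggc
Of the 45 bases, Prdx2 shares 38 with Prdx1, Prdx4 shares 35, Prdx3 shares 34, Prdx6 shares 26 and Prdx5 shares 20. The members least like Prdx1 here, Prdx5 and Prdx6, both belonged to the 4 abundant ones, and the low Prdx3 and Prdx4 were more alike.

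Gpx4 and Gpx1 use selenocysteine, which is encoded by TGA, a codon that otherwise ends translation. Gpx4, the enzyme for peroxides of membrane lipids (chromosome 10, 80047166 to 80056439, plus strand), had 238 reads in replicate 1 and 214 in replicate 2, or 288 and 287 CPM. Gpx1, the general enzyme of cytosol and mitochondria (chromosome 9, 108338903 to 108340343, plus strand), had 27 reads in replicate 1 and 31 in replicate 2, or 32.7 and 41.6 CPM. Gpx4 thus held 89.8% of the reads of the pair in replicate 1 and 87.3% in replicate 2. The 45-base coding windows around the annotated selenocysteine codon, in capitals, are shown because any isoform that lacks them cannot encode the active site.
Gpx1-201, codon 47, chr9:108339430-108339474: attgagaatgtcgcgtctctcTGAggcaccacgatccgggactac
Gpx4-202, codon 73, chr10:80054716-80054760: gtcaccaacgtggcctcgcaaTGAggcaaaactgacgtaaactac
The 2 windows share 25 of 45 bases.

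In the order of mean level, Prdx2, Prdx6, Gpx4, Prdx1, Prdx5, Sod2, Prdx3, Sod1, Gpx1 and Prdx4, the order was the same in both libraries. Only Prdx1 and Prdx5 had ranges over the 2 libraries that overlapped. The exact intervals of neighbours overlapped in both libraries from Prdx2 down to Prdx5 and from Prdx3 down to Gpx1, and their differences were not tested. The intervals were separate in both libraries between Sod2 and Prdx3 and between Gpx1 and Prdx4, while Prdx5 and Sod2 had separate intervals in replicate 1 only. Counted on full-splice reads alone, per 1000000 such reads, Prdx6 came first with 494 CPM, before Gpx4 with 429 CPM and Prdx2 with 377 CPM, since Prdx2 has many reads of another class.

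No gene of the 10 passed the test of a difference between the libraries. The two-sided exact binomial test of replicate 1 reads against the ratio of the totals covered 9062 genes with at least 20 reads together and called 28 of them, 0.309%, with a threshold of 0.05 after Benjamini-Hochberg adjustment and a minimum of 2-fold. Of the 10 genes 9 had enough reads, 0 were called and 0 had an unadjusted p under 0.05, where 672 of the 9062 genes did. The smallest unadjusted p-values of this exact test were 0.174 for Sod2, at a log2 ratio of replicate 1 over replicate 2 of -0.26, and 0.183 for Prdx5, at 0.22. The median size of the log2 ratio was 0.17 over the 9 genes and 0.24 over all genes tested. The labels do not say plainly that the libraries came from separate animals, so such p-values set these 2 libraries against counting error only.

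Each gene was carried mostly by 1 spliced form. A full-splice read covers the complete chain of introns of an annotated or unannotated model, and isoforms were joined between libraries by that chain. The dominant isoform held 97.7% ± 0.354 of full-splice reads for Prdx1 (Prdx1-204), 97.5% ± 3.54 for Prdx3 (Prdx3-201), 96.4% ± 1.64 for Gpx4 (Gpx4-202) and 96.4% ± 0.181 for Gpx1 (Gpx1-201), as mean ± SD of 2 libraries. It held 93.7% ± 0.281 for Prdx5 (Prdx5-201), 93.7% ± 0.958 for Prdx6 (Prdx6-202), 91.7% ± 2.36 for Sod2 (Sod2-201) and 91.6% ± 7.43 for Sod1 (Sod1-201). Prdx4 had 17 full-splice reads, all on Prdx4-201. Prdx2 was the most divided, with 85.3% ± 0.0848 on Prdx2-201.

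In 9 genes both libraries reached 20 full-splice reads. Of these, 8 had a dominant share of 90% or more, and the median over the 9 was 93.7%. Among all 4819 such genes 38.1% had that share, and the median was 84.2%. The two-sided Fisher's exact test of the dominant share between the libraries called 9 of the 4819 genes, 0.187%, at an adjusted p under 0.05. It called 0 of the 9, of which 0 had an unadjusted p under 0.05, where 172 of the 4819 genes did.

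**Figure D2:**
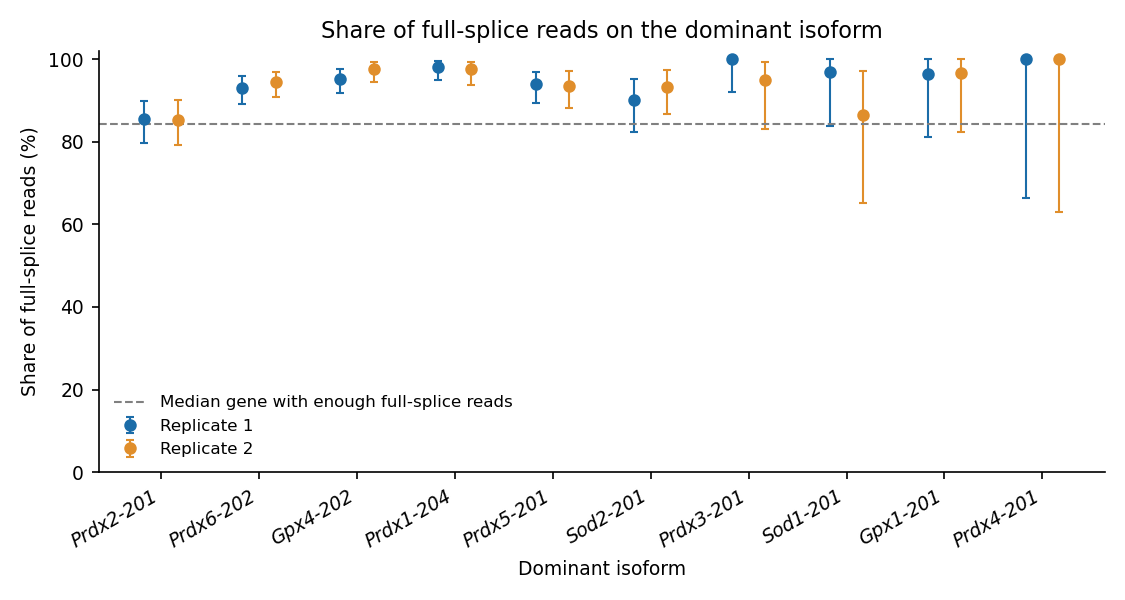
Share of full-splice reads on the dominant isoform of each gene in percent, replicate 1 left and replicate 2 right, with exact 95% intervals. The grey line marks the median gene at 84.2%, and the points of Prdx2-201, at 85.4% and 85.2%, lie closest to it.

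Several minor isoforms differed in the 5′ part of the transcript. Prdx2-203, with a longer stretch of 5′ untranslated sequence and the same annotated coding region of 198 codons, had 21 reads in replicate 1 and 12 in replicate 2, or 8.40% ± 2.61. Prdx2-208, which starts at what is otherwise the second exon and keeps that coding region, had 4 reads in replicate 1 and 7 in replicate 2. Prdx5-203 starts within the first intron of Prdx5-201 and so lacks its first coding exon. It has its own annotated coding start and 213 codons, beside 210 in Prdx5-201. Prdx5-203 had 6 reads in replicate 1 and 5 in replicate 2, or 3.46% ± 0.200. Prdx1-201, with a downstream start, had 3 reads in each library.

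In the selenoprotein pair, Gpx4-207, which starts downstream of the first exon of Gpx4-202 and has an annotated coding region of 157 codons with the TGA codon inside, had 7 reads in replicate 1 and 1 in replicate 2. Gpx4-201, the model of the nuclear form of Gpx4 that is known from sperm, had no read in either library. Gpx1-202, whose annotated coding region starts downstream of the TGA window, had 1 read in replicate 1 and 0 in replicate 2.

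Skipped exons were few. Of 36 internal exons in the dominant isoforms, 32 were skipped by no read, and only exon 2 of Prdx6 and exon 2 of Prdx5 were skipped in both libraries. Exon 2 of Prdx6 is 157 bases long, not a multiple of 3, and holds the cysteine codon shown above. It was skipped by 9 spliced reads, 3.44% (exact 95% interval 1.58 to 6.42%), in replicate 1 and by 3, 1.18% (0.244 to 3.41%), in replicate 2. Of these, 7 reads in replicate 1 and 3 in replicate 2 lay on Prdx6-208, which GENCODE classes as subject to nonsense-mediated decay. The junctions that tell the 2 models apart are shown as 15 bases of exon 1 in lower case followed by 15 bases of the next exon in capitals, on the minus strand of chromosome 1.
Prdx6-202, exon 1 to exon 2: tttcctgggagattcATGGGGCATTCTCTT
Prdx6-208, exon 1 to exon 3: tttcctgggagattcGACATCAATGCTTAC
Exon 2 of Prdx5, 135 bases and in frame, was skipped by 2 reads in replicate 1 and 1 in replicate 2.

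Among reads of 2 or more exons introns were rarely kept, with Sod1 as the exception. The 90 single-exon Prdx2 reads of replicate 2 on a model across its last intron, described below, are outside these counts. Of 46 introns in the dominant isoforms, 27 were kept by no read of 2 or more exons and 7 were kept in both libraries. Intron 1 of Sod1 was kept by 4 of 35 such reads, 11.4% (3.20 to 26.7%), in replicate 1 and by 6 of 25, 24.0% (9.36 to 45.1%), in replicate 2. By their models those reads ran on into exon 2, and 1 of them in replicate 1 and 3 in replicate 2 also kept intron 2, the form annotated as the retained-intron model Sod1-202. The other 3 in each library lay on a partial chain whose model begins at the annotated gene start. Where those reads themselves begin within or before intron 1 is not known. For every other intron that was kept in both libraries the share was lower.

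Over all 10 genes, full-splice reads lay on annotated coding models in 1245 cases in replicate 1 and 1100 in replicate 2. Retained-intron models held 4 reads in replicate 1 and 8 in replicate 2, and the nonsense-mediated decay model of Prdx6 held 7 and 3. Of 70 full-splice isoforms with a read, 28 were annotated, out of 53 annotated models, and 42 were not. Of those 42, 5 had a read in both libraries and 0 reached 5 reads in each.

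Sod2 had the most unusual of these unannotated forms, singled out after their values were seen. In 5 of 107 reads with the end of exon 4 in replicate 1, 4.67% (1.53 to 10.6%), and in 2 of 110 in replicate 2, 1.82% (0.221 to 6.41%), the last exon of Sod2 was skipped. Exon 4, ending at 13013612, was joined instead to further exons on the same strand, and each of these reads ended in an exon at 13330750 to 13333842, which begins 317138 bases downstream of exon 4. That exon overlaps the annotated noncoding gene AC166110.4, which had 0 reads of its own in replicate 1 and 1 in replicate 2.

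Prdx2 also stood apart in the kind of reads it had. Full-splice reads made up 65.5% of its reads in replicate 1 and 66.5% in replicate 2, where 7 of the other 9 genes had a mean of 94.4% or more. The pooled reads of all annotated genes had 77.2% and the median gene tested 82.7%, as means of the 2 libraries. Single-exon reads made up 34.2% in replicate 1 and 32.7% in replicate 2, beside 16.2% over all annotated genes and 7.81% in the median gene tested. TALON, the program that names the models, classed them differently in the 2 libraries. In replicate 1, 84 reads were a partial chain at 84974000 to 84974311 and 23 were a genomic model at 84974484 to 84974834, both within the last exon. In replicate 2, all 90 were 1 genomic model at 84971692 to 84974660, which takes in the last intron as well. Ends of single-exon models are imprecise in these files, so the placement of single reads within those spans is not known.

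With models of 2 or more exons only, 99.2% of Prdx2 reads were full-splice. The last exon of Prdx2 runs to 84974834 and holds AATAAA, the usual polyadenylation signal, 3 times on the transcript strand. At least 1 AATAAA occurs in the last 835 bases of 64.0% of 43791 protein-coding transcripts, a share that says nothing on 3 occurrences. The third, at 84974793 to 84974798, lies before the model end at 84974834. The 2 sites nearest to the model ends at 84974311 and 84974660 are shown, signal in capitals. The second stretch ends in a run of A that begins just past the model end at 84974660. Models on annotated chains end at the same positions, Prdx2-205 at 84974311 and Prdx2-208 at 84974660. Ends of the single-exon models are imprecise, and whether transcripts end at these sites was not tested. The part of the run of A in these reads was not tested either.
Prdx2, chr8:84974288-84974317: gaaaccAATAAAgtattagggacagtgtaa
Prdx2, chr8:84974640-84974669: acatgaAATAAAtacttctgtaaaaaaaaa
The neighbour Junb lies on the other strand, and its annotated span, 84974484 to 84978718, overlaps the last exon of Prdx2. The genomic Prdx2 model of 23 reads in replicate 1 begins at that same position, 84974484. The reads counted for Junb, 104 in replicate 1 and 93 in replicate 2, were on the model Junb-201, placed at 84976910 to 84978718, beyond that exon. Whether any single-exon reads of Prdx2 came from Junb was not tested. With genomic models left out of both libraries, Prdx2 was higher in replicate 1 by 0.50 on the log2 scale, under the 2-fold limit for a call, with an adjusted p of 0.0238 by the exact binomial test, against a log2 ratio of 0.04 and an adjusted p of 1 over all reads. Leaving genomic models out removed 23 Prdx2 reads in replicate 1 and 90 in replicate 2. The 84 single-exon reads of replicate 1 classed as a partial chain stayed in. Over the alternatives run the adjusted p of Prdx2 in that test lay between 0.0238 and 1.

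**Figure D3:**
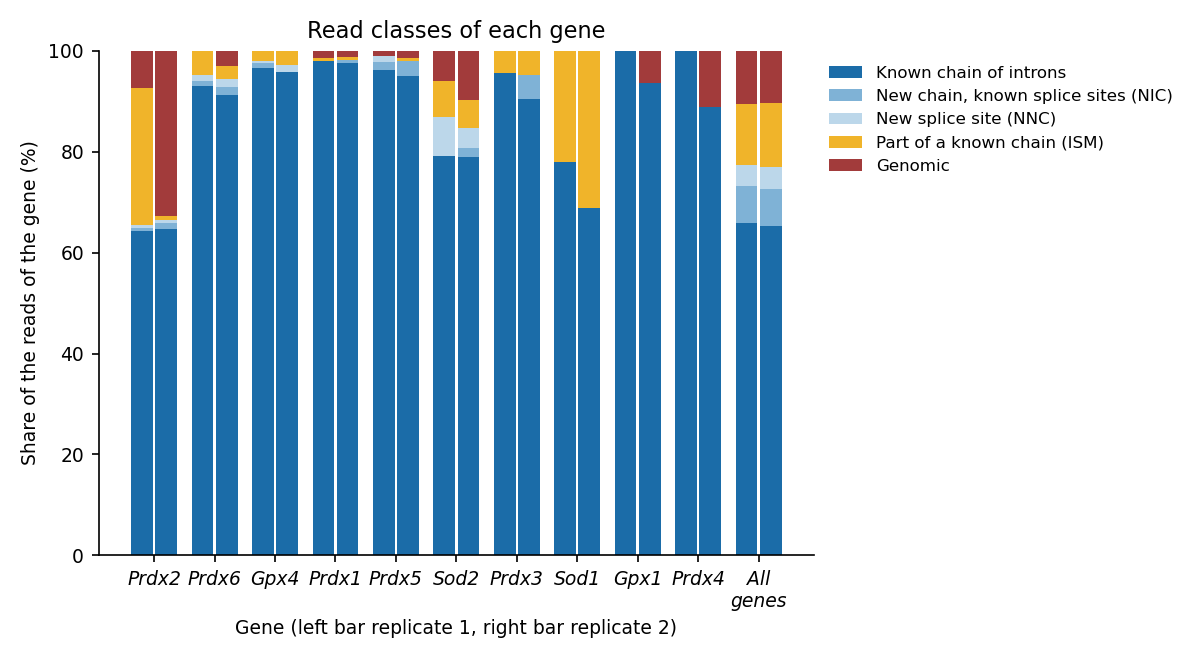
Share of each gene's reads in each deposited transcript class in percent, left bar replicate 1 and right bar replicate 2, with all annotated genes at the far right. In Prdx2 the partial-chain class takes 27.2% in replicate 1 and 0.727% in replicate 2, and the genomic class 7.35% and 32.7%.

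Sod1 had the other low full-splice share, 78.0% in replicate 1 and 68.8% in replicate 2. All its other reads were partial chains, 9 reads in replicate 1 and 10 in replicate 2. In 3 reads of each library the chain had 4 exons, and its model began at the annotated start of the gene, 90220754, and kept intron 1. These are among the reads counted above for that intron, and that count rests on the start of the model. The other partial chains held the last 2 exons in 1 read in replicate 1 and 6 in replicate 2, and the last exon alone in 5 reads in replicate 1 and 1 in replicate 2.

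**Figure D4:**
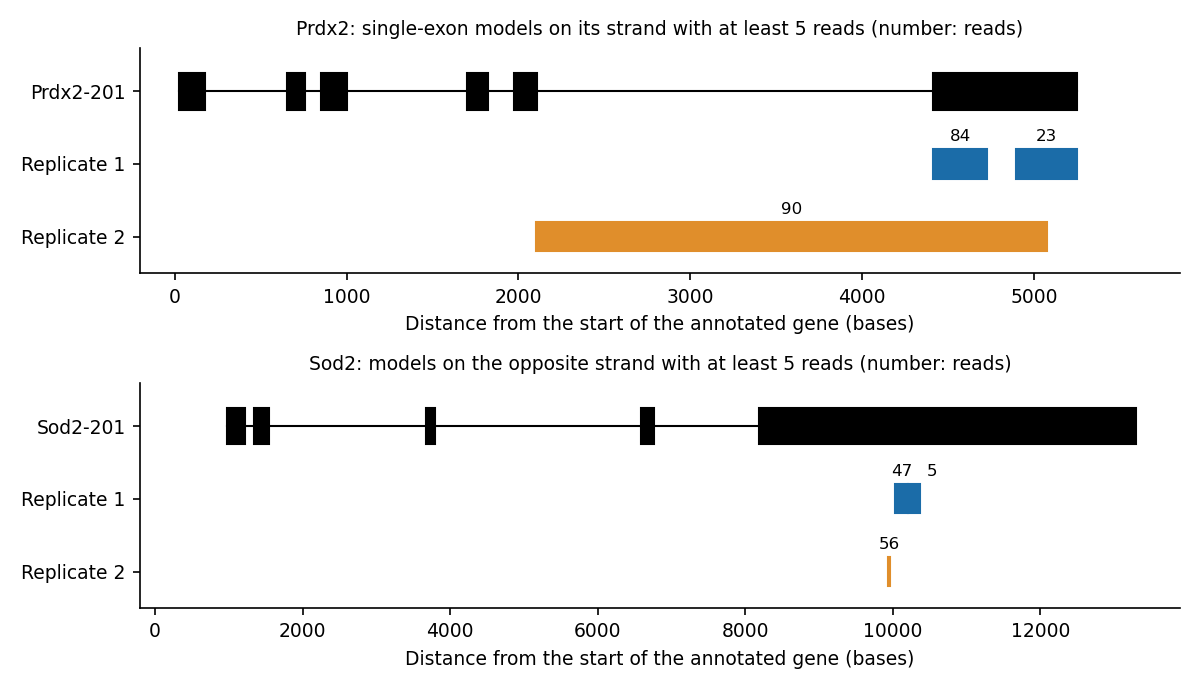
Positions of single-exon Prdx2 models on its own strand and of models on the strand opposite Sod2, with at least 5 reads, as distance in bases from the start of the annotated gene, with the exons of the dominant isoform on top. Prdx2 models lie at the last exon in replicate 1 and reach across the last intron in replicate 2, and the opposite-strand models of Sod2 lie inside its long last exon in both, where the model of 1 base in replicate 2 is drawn wider to be seen.

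The other genes of the same chemistry were measured in 6 lists. The thioredoxin and glutaredoxin list includes the thioredoxins that give electrons to the peroxiredoxins. It had reads in both libraries for 11 of 11 genes with a median of 72.4 CPM. It was led by Txn2, the mitochondrial thioredoxin, at 157 ± 28.1 CPM, followed by Glrx5 at 118 ± 5.78, Glrx3 at 103 ± 0.323 and Glrx2 at 96.0 ± 16.0 CPM (SD, n = 2). Of its 9 genes with enough reads, 0 were called between the libraries. Txn2 stood above its partner Prdx3 in both libraries.

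Glutathione supply had reads in both libraries for 7 of 7 genes with a median of 25.9 CPM. Gclc, the catalytic subunit of the enzyme that limits glutathione synthesis, stood at 99.6 ± 10.9 CPM, Gsr, which reduces spent glutathione, at 48.9 ± 2.73 CPM and Gss at 25.9 ± 4.41 CPM. Gclm, the modifier subunit, was the 1 gene of 5 tested that was called, with 69 reads, 83.5 CPM, in replicate 1 and 28 reads, 37.6 CPM, in replicate 2 (log2 ratio 1.14, exact binomial test, adjusted p = 0.0418 over all genes). That call was lost when genomic models were left out (log2 ratio 0.64, adjusted p = 0.600).

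The other peroxidases and superoxide genes were low, with a median of 5.74 CPM over 10 genes. Catalase, Cat, the peroxisomal enzyme for hydrogen peroxide, led with 70.0 ± 1.51 CPM, between Sod2 and Prdx3. Ccs, the copper chaperone that loads Sod1, stood at 16.8 ± 6.62 CPM, Sod3, the extracellular superoxide dismutase, at 14.1 ± 2.83 CPM and Gpx3, the secreted glutathione peroxidase, at 9.60 ± 1.60 CPM. Gpx2, Gpx5, Gpx6 and Prdx6b had no read in either library, and 0 of the 3 genes tested were called.

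Regulators and targets of NRF2, the factor that drives many antioxidant genes, spread widely around a median of 13.5 CPM. Nfe2l1, a relative of NRF2, led with 261 reads in replicate 1 and 163 in replicate 2, or 316 and 219 CPM, a difference with an adjusted p of 0.0411 in the exact binomial test that was under 2-fold. Hmox2 stood at 88.5 ± 15.1 CPM, Mafg at 68.7 ± 0.386 CPM and Keap1, the sensor that holds NRF2 back, at 40.6 ± 4.24 CPM, while Maff had no read. Of the 6 genes tested 0 were called.

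NADPH supply had reads for all 7 genes measured, with a median of 44.1 CPM, led by Me3 at 107 ± 9.62, Me1 at 70.5 ± 2.95, Idh2 at 55.1 ± 7.68 and Idh1 at 44.1 ± 13.0 CPM, and 0 of 6 tested were called. NADPH oxidases, which produce superoxide, were at or near 0. Cyba, a subunit shared by several of them, had 9.53 ± 0.204 CPM, Nox4 had 0 reads in replicate 1 and 1 in replicate 2, and Cybb, Nox1, Nox3, Duox1 and Duox2 had none.

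**Figure D5:**
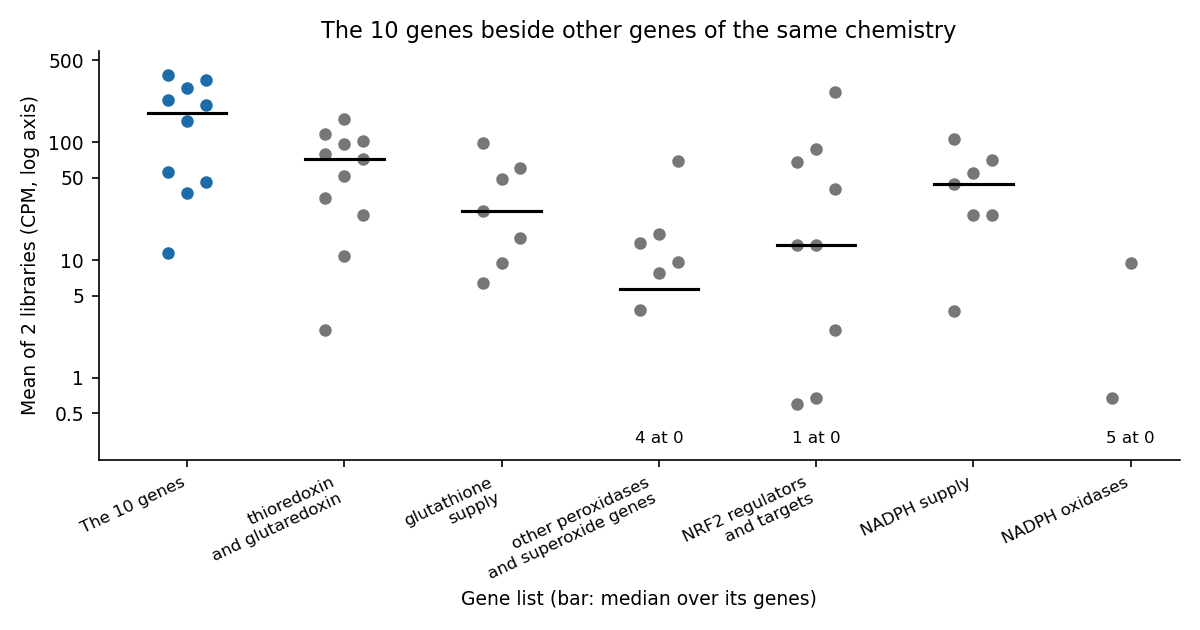
Mean CPM of 2 libraries on a log axis for each of the 10 genes and for the genes of 6 lists of the same chemistry, with a bar at the median of each list and the number of genes without a read below. The 10 genes have a median of 179 CPM and the lists 72.4 CPM or less.

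Copies and neighbours bear on a few of the counts. The processed pseudogene Gpx4-ps2 on chromosome 10, at 45875291 to 45876086, had 4 reads in replicate 1 and 11 in replicate 2, beside 238 and 214 for Gpx4. Prdx2-rs3 and Prdx6-ps2 had none. No source used here says how reads from near-identical copies were assigned, so the split between Gpx4 and Gpx4-ps2 is uncertain. The first exon of Prdx5 overlaps Trmt112, which lies on the other strand with 26 reads in replicate 1 and 22 in replicate 2, and the last exon of Sod1 overlaps Scaf4, also on the other strand, with 21 and 16 reads.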

How the data were processed

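Long-read RNA sequencing of hippocampus gave 2 libraries of 1 group. The authors deposited whole-number counts of reads per transcript model, not normalized, with the exons and length of each model. Other deposited values, the exon and model coordinates, are in mm10 with GENCODE M21 per the files deposited with each sample, and TALON is named in the structure files. No source used here names the aligner or tool versions. Totals were 836240 reads in replicate 1 and 752291 in replicate 2, of which 9644 and 6799 lay on spike-ins and were left out.

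Counts were summed per annotated gene over all sense models. Intervals are exact 95% Clopper-Pearson intervals. They and the limit of 3 counts for a count of 0 cover counting error only, since reads carry no molecular identifiers. Log2 ratios used a pseudocount of 0.5. All 10 genes are named, with up to 3 annotated isoforms each, and of each other list the 4 highest, those without a read and those called. Nnt, with more than 1 identifier, was not analysed. The genes and lists were chosen with earlier results of these data known. Both tests were run on simulated counts with large set changes and counting error only. They were not tried on small changes or on spread between libraries beyond counting error. Alternatives changed classes, scaling, minimums and libraries. Sequences are from GENCODE M21 transcripts. Python 3.11.15, scipy 1.17.1, pandas 2.3.3, R 4.3.3 and edgeR 4.0.16 (TMM factors only) were used.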

Additional observations from a re-analysis of the deposited data

Results flagged for a closer look

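Sod2 had reads on the opposite strand, which enter no level above. They numbered 54 in replicate 1 and 60 in replicate 2, or 65.3 and 80.5 CPM with a mean of 72.9 CPM, above the limit that a count of 0 allows in each library. Only models classed as antisense were counted, so reads on annotated genes of the opposite strand, such as Trmt112 and Scaf4, are left out. By that count Sod2 alone of the 10 genes passed the limit in both, since the highest elsewhere was 3 reads, in Sod1 and Prdx3. Of these reads, 52 in replicate 1 and 57 in replicate 2 lay on minus-strand models whose 3′ ends lie within 500 bases of the longest run of T in Sod2-201, inside the last exon of 5109 bases. That run has 23 bases, and 0.702% of 58797 protein-coding transcripts hold a run at least as long. It is shown in capitals within 30 bases of the plus strand.
Sod2, chr17:13016712-13016741: aagTTTTTTTTTTTTTTTTTTTTTTTggct
The nearest 3′ end lay 133 bases from the run in replicate 1 and 40 bases from it in replicate 2, where the main model is only 1 base long, so the ends are imprecise. The part of the run in these reads was not tested.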

How the results depend on the processing

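No paired analysis was possible because the series has 1 group. The median level of the 10 genes, 179 CPM, was 226 CPM without genomic models, 255 CPM on full-splice models only and 177 CPM with spike-in reads kept in the total, since those change the total, and 178 to 180 CPM when either library was left out. All 10 genes kept their place in the order without either library, with TMM scaling and with spike-ins kept, 8 did so without genomic models, 5 on full-splice models only and 2 per kilobase of the dominant model. Between the libraries, 28 of 9062 genes were called in the main setting and 52 of 9062 with no fold limit. The count was 61 of 8306 without genomic models and 14 of 7558 on full-splice models only. Of the 10 genes 0 were called under each of the 8 alternatives run. Prdx4 was tested only at a minimum of 10 reads or with none, and the other alternatives tested 9 of the 10 genes. The log2 ratios of Prdx2 and Gpx4 changed sign on full-splice models, at -0.00046 and -0.00045, both near 0. Without genomic models, which removed 23 Prdx2 reads in replicate 1 and 90 in replicate 2, Prdx2 had a log2 ratio of 0.50. Its adjusted p there by the exact binomial test was 0.0238, against 1 over all reads and in the other alternatives. Prdx2 was not called since the ratio is under 2-fold. Of the other pathway genes, 0 were called with no read minimum, without genomic models or on full-splice models only, and 2 with no fold limit, against 1. The median dominant share, 95.1% over 10 genes, was 97.1% on annotated models only, 93.7% with partial chains added, and 94.7 to 95.8% when either library was left out. With partial chains added, Sod1 fell to 75.8% and Prdx2 to 72.3%. A partial chain was credited to the dominant isoform only where it fit that chain alone, which a single-exon read cannot. Otherwise it entered only the total, so the lower shares need not stand for reads on other isoforms. On annotated models only, Fisher's exact test called 0 of 4015 genes, 86 with an unadjusted p under 0.05, against 9 of 4819. The median full-splice share, 95.1%, was 98.4% on models of 2 or more exons. No library test could be made with a library left out. Where no cause is given here, the cause was not tested. At this depth Prdx4, with 18 reads in all, allows no statement on its minor isoforms.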
